A study of Mus musculus with 8 samples.

Results

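The genes that carry a cell through the G1 phase of its cycle were followed in the ventricles of tumor-bearing mice. They comprise the D-type cyclins Ccnd1, Ccnd2 and Ccnd3, their catalytic partners Cdk4 and Cdk6, the CDK inhibitors Cdkn1b and Cdkn2c, the pocket proteins Rb1 and Rbl1, and the transcription factor E2f1. They were chosen by symbol and are 10 of the 43346 genes in the count table. Ventricular RNA of 8 male mice (C57BL/6) was sequenced in a study of how a tumor growing elsewhere affects the heart. Of these, 4 received 1000000 LLC1 cells at 7 weeks of age, and 4 received the PBS vehicle. LLC1 is a mouse lung carcinoma line that grows in C57BL/6 hosts, and the cells were placed under the skin of the flank. All hearts were taken on day 14. The labels name no transgene or deletion in either group. The mice are named as in the labels, LLC1-2, LLC1-3, LLC1-5 and LLC2-2 for the tumor-bearing group and PBS1-1, PBS1-3, PBS2-1 and PBS2-5 for the vehicle group.

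D-type cyclins are short-lived proteins made in response to growth signals. They bind CDK4 or CDK6, and the kinase then phosphorylates the retinoblastoma protein and its relatives, the pocket proteins. Unphosphorylated pocket proteins hold E2F factors in check, and their phosphorylation frees E2F to switch on cyclin E, cyclin A and the genes of DNA replication. The inhibitor p27, made from Cdkn1b, acts mainly on CDK2 complexes and also helps to assemble cyclin D with its kinases, while p18, made from Cdkn2c, binds CDK4 and CDK6 alone. Most cardiomyocytes of an adult mouse have left the cell cycle, so in a ventricle these mRNAs come from a mixture of resting muscle and of endothelial cells, fibroblasts and leukocytes that may still divide.

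Library totals ran from 15342214 to 19747596 counts in tumor-bearing mice and from 12480706 to 16192158 counts in PBS-injected mice. Levels are given as CPM, a gene's counts per 1000000 counts of the TMM-scaled library, and a gene is called where edgeR's quasi-likelihood test gives an FDR (Benjamini-Hochberg, over 16111 genes) under 0.05. By this rule 4.61% of all genes tested were called lower in tumor-bearing mice and 4.12% higher, and in 17.2% the mice of the groups did not overlap. These are 663 genes higher of 1406 called, and with library totals in place of TMM they were 225 of 1018. The number called was 542 without PBS1-3 and 1949 without PBS1-1, the extremes with a mouse left out. The median log2 fold change over all genes tested was -0.01. The library of PBS1-1 stood apart from the other PBS libraries, with a chi-square per degree of freedom of 67.4 to 99.97 against each of them, where all other pairs within a group gave 4.90 to 17.6. Cardiomyocyte markers summed to 92910 to 99840 CPM in tumor-bearing and 83890 to 95600 CPM in PBS-injected mice, which fits the labelled tissue. The highest of these PBS sums was that of PBS1-1. In a bulk sample, fewer cells of a type and less RNA per cell cannot be told apart.

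All 10 genes passed the filter on low counts. Ccnd1 and Rbl1 fell, no gene rose, and 8 were not called. DESeq2 and limma-voom each called 2 of the genes lower and 0 higher. At an unadjusted p under 0.05 there were 3 genes lower, E2f1 being the other one, and 0 higher, beside 13% lower and 12.4% higher among all genes tested at that p. The median log2 fold change of the 10 genes was -0.15, with 8 values below 0 and 2 above. The tumor-bearing mice lay wholly below the PBS mice in Ccnd1 and Rbl1 and wholly above them in Cdkn1b. These counts stand beside the shares for all genes given above, and with 10 genes a share moves in large steps.

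**Figure D1:**
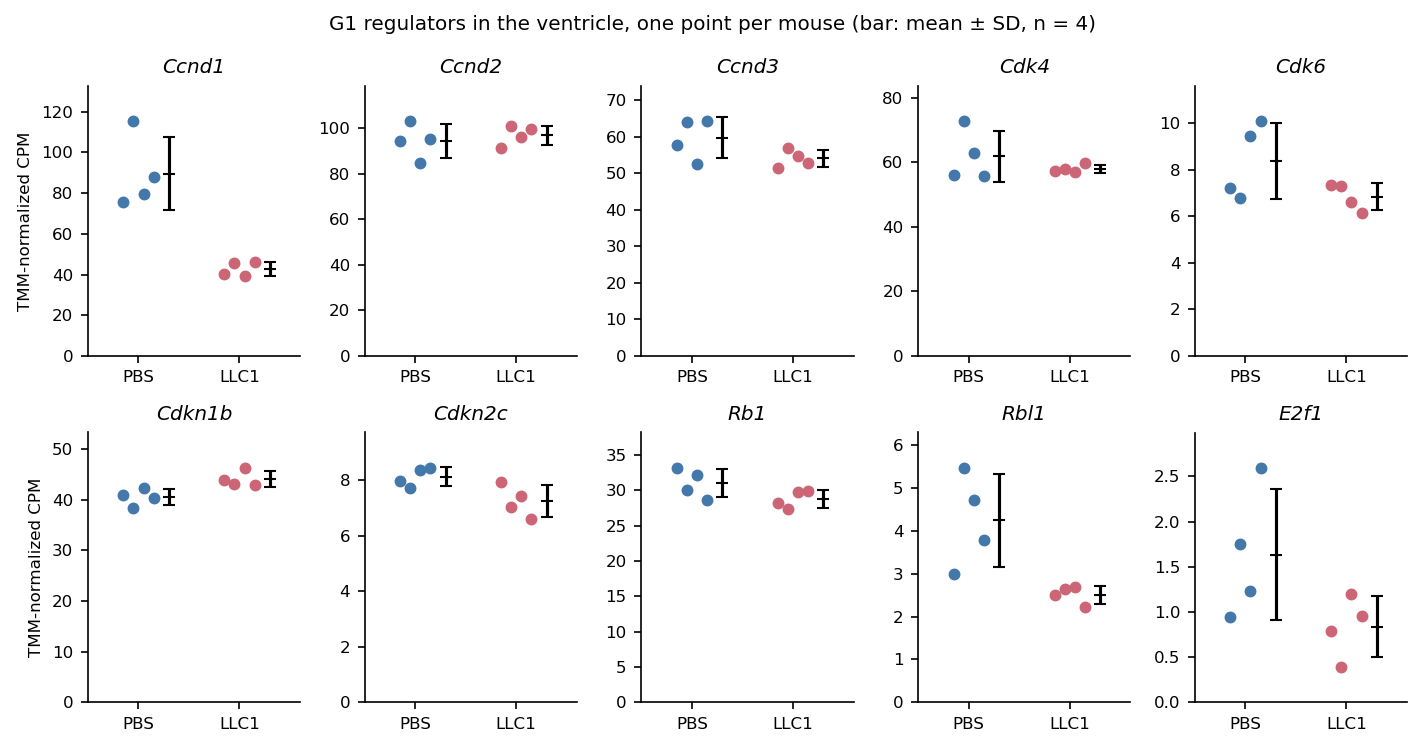
TMM-normalized CPM of each of the 10 G1 regulators in the ventricle (vertical axes from 0), 1 point per mouse, with the mean and SD of the 4 mice beside each group. The groups are apart in Ccnd1, Rbl1 and, by a small margin in the other direction, Cdkn1b, and they overlap in the other panels.

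Ccnd1 encodes cyclin D1 and lies on chr7 at 144929931 to 144939869 (mm10, minus strand, ENSMUSG00000070348). It was at 40.4, 45.6, 39.3 and 46.0 CPM in LLC1-2, LLC1-3, LLC1-5 and LLC2-2. In PBS1-1, PBS1-3, PBS2-1 and PBS2-5 it was at 75.4, 115.3, 79.5 and 87.8 CPM. The highest tumor-bearing mouse was thus well below the lowest PBS mouse, PBS1-1, and the PBS mice were the more spread, with a coefficient of variation of 20.1%. The group levels were 42.8 ± 3.45 CPM with tumor and 89.5 ± 18.0 CPM without (mean ± SD, n = 4 each). Ccnd1 fell to 0.479 of the PBS level, with a log2 change of -1.06 (SE 0.12, 95% interval -1.33 to -0.80, FDR 0.000781). In the exact two-sided permutation test of log2 CPM p was 0.0286, the smallest that 4 mice against 4 can give.

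The fall in Ccnd1 was called in each of 8 other settings of the fit, with an FDR of 1.09e-13 to 0.00182, and with each of the 8 mice left out, where the FDR was 0.000119 to 0.00482 and the log2 change -1.13 to -0.92. The labels do not say what the first number of the mouse names stands for. Within number 1 (3 tumor-bearing and 2 PBS mice) the log2 ratio of the Ccnd1 means was -1.19, and within number 2 (1 and 2 mice) it was -0.86.

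Ccnd1 shares exon sequence with its neighbour on the other strand, Oraov1 (named LTO1 in GENCODE M21). In that annotation the shared 1100 bases are 23.4% of the 4709 exon bases of Ccnd1. The gene model of the count table has 3835 bases, and the overlap within it was not determined. Reads from shared bases cannot be assigned to a strand with a library kit that does not mark it. Oraov1 itself was at 25.7, 24.7, 27.1 and 28.0 CPM in the tumor-bearing mice and 32.2, 45.2, 36.1 and 35.5 CPM in the PBS mice, in the order used above. It also fell, by less than Ccnd1, with a log2 change of -0.50 (SE 0.10, FDR 0.0121). The part of each gene's change that comes through shared reads was not tested, and the whole Oraov1 level was below that of Ccnd1 in every mouse.

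Ccnd2, which encodes cyclin D2 (chr6, 127125779 to 127151048), ran from 91.4 to 100.8 CPM in tumor-bearing mice and from 84.6 to 103.1 CPM in PBS mice. The tumor-bearing mice all lay inside the PBS range. The log2 change of 0.04 (SE 0.07, FDR 0.767) has a 95% interval of -0.11 to 0.19, which does not reach the change of Ccnd1. Ccnd3, which encodes cyclin D3 (chr17, 47505051 to 47599691), ran from 51.5 to 57.0 CPM with tumor and from 52.7 to 64.3 CPM without. It was not called either, at a log2 change of -0.14 (SE 0.08, 95% interval -0.31 to 0.02, FDR 0.264). Ccnd2 shares 3.91% of its exon bases with 9330179D12Rik on the other strand (at most 19 counts per mouse, not called), and Ccnd3 shares 4.11% with Bysl (log2 change 0.08, FDR 0.634). Gm43126 overlaps 3.95% of the GENCODE M21 exon bases of Ccnd2, and Gm17590 overlaps 2.63% of those of Cdk6. Neither is among the genes of the count table, so they could not be compared. A Ccnd3 pseudogene, Ccnd3-ps, is 97.6% identical to Ccnd3 over 295 bases, so some reads may be shared between them. The same holds for Cdk6 and Gm42961, which are 97.7% identical over 175 bases.

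**Figure D2:**
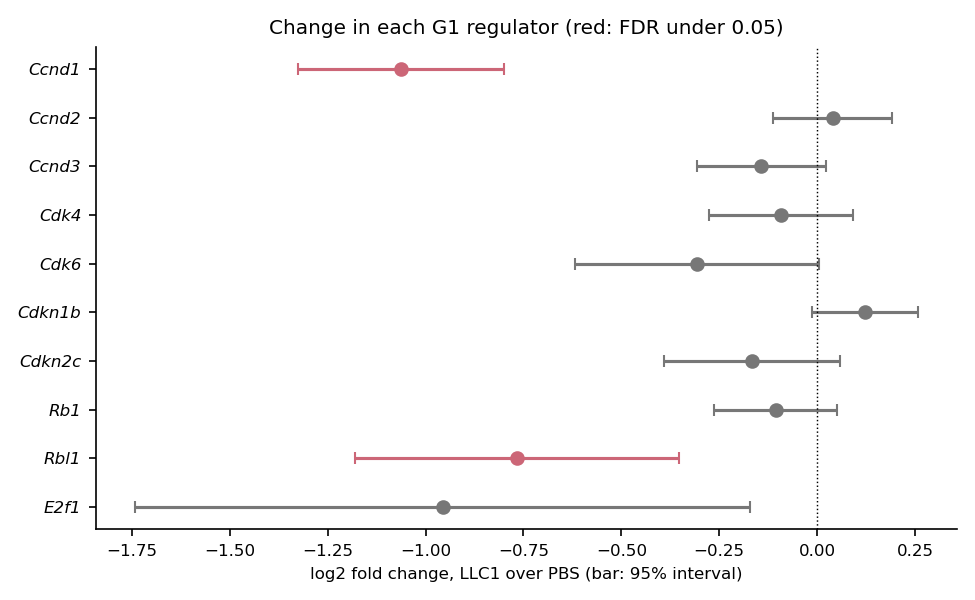
Log2 fold change of each G1 regulator, tumor-bearing over PBS-injected mice, with the 95% interval from edgeR's quasi-likelihood fit (n = 4 mice per group, red for FDR under 0.05). The intervals of Ccnd1 and Rbl1 lie below 0 and are called, that of E2f1 also lies below 0 but its FDR is 0.121, and the others reach 0.

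To compare levels between genes, CPM was divided by the gene length in the file, giving CPM per kb. In PBS mice Ccnd1 was the highest of the 10 genes, at 23.3 ± 4.68 CPM per kb (mean ± SD, n = 4), followed by Cdk4 at 19.0 ± 2.46 and Ccnd2 at 16.5 ± 1.33. The ranges over mice of Ccnd1 and Cdk4, and of Cdk4 and Ccnd2, overlapped, but within each of the 4 PBS mice Ccnd1 was above Cdk4 and Cdk4 above Ccnd2. Below them came Cdkn1b at 8.90, Ccnd3 at 6.80, Rb1 at 5.16, Cdkn2c at 3.02 and Cdk6 at 2.25 CPM per kb, with no overlap between neighbours. Rbl1 at 0.707 and E2f1 at 0.518 CPM per kb were lowest and overlapped, with Rbl1 the higher in 3 of the 4 mice.

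In tumor-bearing mice the order of the first genes was Cdk4 at 17.9 ± 0.367, Ccnd2 at 17.0 ± 0.741 and then Ccnd1 at 11.2 ± 0.901 CPM per kb. The ranges of Cdk4 and Ccnd2 overlapped, with Cdk4 the higher in 4 of 4 mice, while Ccnd1 lay below both and just above Cdkn1b, at 9.68 CPM per kb. From the fourth place down the order of the genes was that of the PBS mice. The lengths are those in the file, which count fewer exon bases than GENCODE M21 for Ccnd1 (3835 against 4709), Ccnd2 (5701 against 9409) and Cdk6 (3735 against 13989), so the order between genes depends on the gene model.

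The make-up of the D-type cyclin mRNA differed accordingly. Ccnd1 made up 32.5, 32.9, 30.8 and 33.8% of the summed CPM per kb of the D-type cyclins in LLC1-2, LLC1-3, LLC1-5 and LLC2-2. In PBS1-1, PBS1-3, PBS2-1 and PBS2-5 its share was 46.0, 54.2, 49.9 and 48.8%. The shares did not overlap, and per length Ccnd1 was the leading D-type cyclin in every PBS mouse and Ccnd2 in every tumor-bearing mouse. The lead in PBS mice depends on the division by length: by raw counts Ccnd1 led in PBS1-3 alone (40.8% against 36.5% for Ccnd2), and Ccnd2 led in PBS1-1 (41.5% against 33.2%), PBS2-1 (39.0% against 36.7%) and PBS2-5 (38.6% against 35.5%). Ccnd2 held 49.5 ± 0.658% with tumor and 35.6 ± 2.47% without (mean ± SD, n = 4 each), and Ccnd3 held 18.0 ± 0.726% and 14.6 ± 1.10%. The sum of the D-type cyclins was 32.4 to 36.1 CPM per kb in tumor-bearing mice and 41.6 to 55.5 CPM per kb in PBS mice. These shares and sums are descriptions and were given no test.

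**Figure D3:**
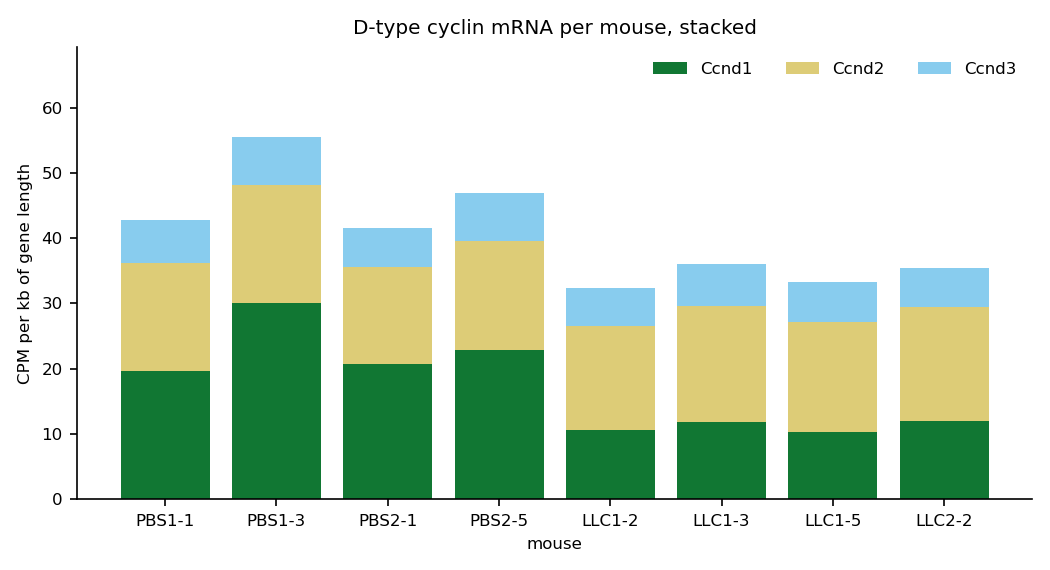
CPM per kb of gene length of Ccnd1, Ccnd2 and Ccnd3 stacked for each of the 8 mice (vertical axis from 0). The Ccnd1 segment is 19.7 to 30.1 CPM per kb in the PBS mice and 10.3 to 12.0 in the tumor-bearing mice, while the Ccnd2 and Ccnd3 segments overlap between the groups.

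The kinases that the D-type cyclins activate were not called. Cdk4 (chr10, 127063534 to 127067920) ran from 57.1 to 59.7 CPM in tumor-bearing mice and from 55.7 to 72.8 CPM in PBS mice, so every tumor-bearing mouse lay inside the PBS range. Its log2 change was -0.09 (SE 0.08, 95% interval -0.28 to 0.09, FDR 0.531). The exons of Cdk4 overlap those of Tspan31 on the other strand over 641 bases, 19.7% of its exon bases, and Tspan31 was not called (log2 change -0.07, SE 0.08, FDR 0.620).

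Cdk6 (chr5, 3343893 to 3523218) was the less abundant kinase, and its values were 7.34, 7.31, 6.62 and 6.14 CPM in the tumor-bearing mice. In PBS1-1, PBS1-3, PBS2-1 and PBS2-5 they were 7.21, 6.80, 9.48 and 10.1 CPM. PBS1-1 and PBS1-3 thus lay among the tumor-bearing mice, and PBS2-1 and PBS2-5 above all of them. The log2 change was -0.31 (SE 0.14, 95% interval -0.62 to 0.0041, FDR 0.202). Within the number 1 mice the log2 ratio of the Cdk6 means was 0.02 and within the number 2 mice -0.67, the latter with a single tumor-bearing mouse. Per length, Cdk6 made up 9.32 ± 0.831% of Cdk4 plus Cdk6 with tumor and 10.7 ± 2.57% without (mean ± SD, n = 4 each).

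Of the inhibitors, Cdkn1b (p27, chr6, 134920401 to 134925513) was at 43.9, 43.1, 46.3 and 43.0 CPM in the tumor-bearing mice and at 40.9, 38.4, 42.3 and 40.4 CPM in the PBS mice. Every tumor-bearing mouse was above every PBS mouse, though LLC2-2 and PBS2-1 nearly met. The exact permutation p was 0.0286, but the gene was not called across all genes, at a log2 change of 0.12 (SE 0.06, 95% interval -0.01 to 0.26, FDR 0.238). Cdkn2c (p18, chr4, 109660876 to 109667189) ran from 6.59 to 7.94 CPM with tumor and from 7.71 to 8.44 CPM without, where only LLC1-2 lay inside the PBS range. Its log2 change was -0.17 (SE 0.10, 95% interval -0.39 to 0.06, FDR 0.337).

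The retinoblastoma gene Rb1 (chr14, 73183673 to 73325822) ran from 27.3 to 29.9 CPM in tumor-bearing mice and from 28.7 to 33.2 CPM in PBS mice. The groups overlapped and the gene was not called (log2 change -0.11, SE 0.07, 95% interval -0.26 to 0.05, FDR 0.387). Its exons overlap those of Rcbtb2 (8.11% of the Rb1 exon bases, log2 change of Rcbtb2 -0.03, FDR 0.867) and Lpar6 (6.78%, log2 change -0.35, FDR 0.144) on the other strand, neither of which was called. Rbl1 encodes p107, a pocket protein that is itself made under E2F control and is known to be more abundant in cycling than in resting cells. It lies on chr2 at 157145893 to 157204534 (minus strand, ENSMUSG00000027641). Its level was 2.51, 2.63, 2.68 and 2.21 CPM in LLC1-2, LLC1-3, LLC1-5 and LLC2-2, and 3.00, 5.47, 4.71 and 3.78 CPM in PBS1-1, PBS1-3, PBS2-1 and PBS2-5. All tumor-bearing mice were below all PBS mice, with PBS1-1 nearest to them.

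Rbl1 fell from 4.24 ± 1.08 to 2.51 ± 0.210 CPM (mean ± SD, n = 4 each), to 0.588 of the PBS level. The log2 change was -0.77 (SE 0.19, 95% interval -1.18 to -0.35, FDR 0.0290), with an exact permutation p of 0.0286. These levels rest on 38 to 49 counts per tumor-bearing mouse and 35 to 80 per PBS mouse. The 35 counts of PBS1-1 come from the shallowest library and have an exact Poisson 95% interval of 24.4 to 48.7 counts, which covers counting error only. Rbl1 was called in each of 8 other settings, at an FDR of 0.0143 to 0.0377. With a mouse left out it stayed called without PBS1-1 (FDR 0.00574) and without PBS2-5 (FDR 0.0303). The call was lost without LLC1-2 (FDR 0.0700), LLC1-3 (0.0688), LLC1-5 (0.0625), LLC2-2 (0.0792), PBS1-3 (0.0945) or PBS2-1 (0.0729), with log2 changes of -0.88 to -0.63 over the 8 fits. Within the number 1 mice the log2 ratio of the means was -0.70 and within the number 2 mice -0.94.

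The sequence before the Rbl1 start is shown because it holds the letters of an E2F site, the element through which the pathway acts on its targets. It is the 250 bases upstream of the RefSeq start (GRCm38.p6, the assembly of mm10), minus strand, chr2:157204535-157204784, written 5′ to 3′ with the match in capitals.
Rbl1: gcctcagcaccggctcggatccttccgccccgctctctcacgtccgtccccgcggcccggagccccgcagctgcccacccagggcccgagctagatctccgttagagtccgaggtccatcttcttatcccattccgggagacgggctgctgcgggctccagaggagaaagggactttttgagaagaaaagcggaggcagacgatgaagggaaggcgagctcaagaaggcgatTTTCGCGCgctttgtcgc

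The letters searched were TTTCCCGC, TTTCGCGC, TTTGCCGC and TTTGGCGC on both strands, from 250 bases before to 50 after each RefSeq start. In Rbl1 the match TTTCGCGC begins 18 bases before the start. Such a match was in 2.26% of all 32851 promoter windows of this length and in 2.6% of 27025 gene symbols. Windows were given for 7 of the 10 genes, all but Ccnd1, Ccnd2 and Rb1, and Rbl1 was the 1 gene of these 7 with a match. The windows of E2f1 and Cdkn2c lie wholly inside the genes as the file places them. The bases before the starts of E2f1 and Cdkn2c in the file were therefore not searched. A match is a run of letters and not a measured binding site.

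E2f1 itself (chr2, 154559407 to 154569892), an E2F that activates transcription, was the least abundant of the 10 genes. It was at 0.794, 0.395, 1.20 and 0.956 CPM in the tumor-bearing mice and at 0.944, 1.75, 1.24 and 2.60 CPM in the PBS mice. The groups overlapped, PBS1-1 lying among the tumor-bearing mice and PBS2-5 far above all others. These are 6 to 22 counts per tumor-bearing mouse and 11 to 44 per PBS mouse, and the 6 counts of LLC1-3 have a Poisson interval of 2.20 to 13.1 counts. The log2 change of -0.96 (SE 0.36, 95% interval -1.74 to -0.17) lay between those of Ccnd1 and Rbl1, but its FDR was 0.121 and the exact permutation p 0.0857. The gene was not called in any of 7 other settings (FDR 0.106 to 0.164) and was removed under a filter of 10 counts in every mouse. Without PBS1-1 it was called, at a log2 change of -1.12 and an FDR of 0.0499.

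**Figure D4:**
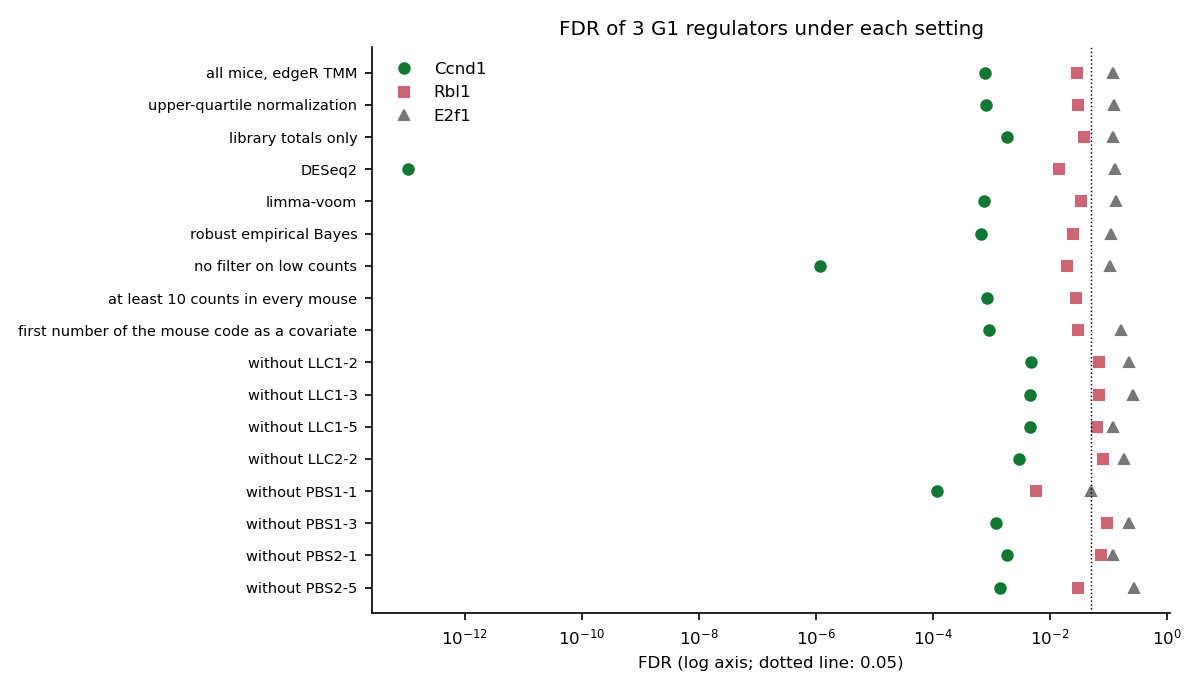
FDR (horizontal log axis, dotted line at 0.05) of Ccnd1, Rbl1 and E2f1 with all mice, under 8 other settings (7 for E2f1, which the filter of 10 counts in every mouse removes) and with each of the 8 mice left out. Ccnd1 stays left of the line throughout, Rbl1 crosses it in 6 of the 8 fits without a mouse, and E2f1 is left of it in 1, without PBS1-1.

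The rest of the G1 and early S phase network was read from lists of 50 further genes, of which 46 could be tested and 4 (Cdkn2a, Cdkn2b, Mybl2 and Cdc6) had too few counts. Of these, 10 fell, 2 rose and 34 were not called, beside 4.61% and 4.12% of all genes. Their median log2 change was -0.19, with 36 values below 0 and 10 above. DESeq2 called 7 lower and 2 higher, and limma-voom 9 lower and 2 higher. With 1 mouse left out, the number lower was 2 without LLC1-2, LLC1-3 or LLC1-5, 1 without LLC2-2 or PBS1-3, 5 without PBS2-1, 4 without PBS2-5 and 11 without PBS1-1, and the number higher was 2 each time. Over all genes, the number called moved with the same fits, from 1406 with all mice to 751 without LLC1-2, 634 without LLC1-3, 712 without LLC1-5, 832 without LLC2-2, 542 without PBS1-3, 955 without PBS2-1, 1637 without PBS2-5 and 1949 without PBS1-1.

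Cyclin E, cyclin A and their kinase act just after the D-type cyclins. Of these 5 genes 3 fell. Ccne2, which encodes cyclin E2, was at 2.91, 3.69, 3.50 and 3.27 CPM with tumor and at 4.55, 4.77, 4.77 and 4.96 CPM without, a log2 change of -0.51 (SE 0.13, FDR 0.0319). The groups were well apart and the PBS mice close together. Ccna2 (cyclin A2) changed by -0.69 on the log2 scale (SE 0.17, FDR 0.0322), and Cdc25a, the phosphatase that activates CDK2, by -0.47 (SE 0.13, FDR 0.0468). Ccne1 (cyclin E1) was not called at a log2 change of -0.60 (FDR 0.210), on 0.329 to 1.05 CPM per mouse, and Cdk2 had -0.13 (FDR 0.509). With 1 mouse left out, Ccne2 and Cdc25a were called without PBS1-1 (FDR 0.0267 and 0.0213) and in none of the other 7 fits (FDR up to 0.0848 and 0.127). Ccna2 was called without PBS1-1 (FDR 0.00732) or PBS2-1 (FDR 0.0406) and not in the other 6 (FDR up to 0.0951). With all mice, Cdc25a was called in 3 and Ccne2 in 6 of 8 other settings.

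Of the 9 other E2F and DP factors, 1 fell and 1 rose. E2f2, an activating E2F like E2f1, was at 0.794, 0.329, 0.383 and 0.302 CPM with tumor and at 0.944, 1.12, 0.883 and 1.77 CPM without. The groups did not overlap, with LLC1-2 close to the PBS mice, and the log2 change was -1.42 (SE 0.37, FDR 0.0340). These are 5 to 12 counts per tumor-bearing mouse and 11 to 30 per PBS mouse. E2f2 thus passed the filter on low counts mainly through the PBS mice, and its log2 change rests on few counts. Like E2f1, it was removed under the filter on counts in every mouse. It was called in each of 7 other settings (FDR 0.0236 to 0.0467). The call held without LLC1-2 (FDR 0.0260), PBS1-1 (0.0239) or PBS2-1 (0.0412) and was lost without LLC1-3 (0.0993), LLC1-5 (0.0958), LLC2-2 (0.0979), PBS1-3 (0.0798) or PBS2-5 (0.0748). Tfdp2, a DP partner with which E2F binds DNA, rose, from 91.1, 72.4, 92.9 and 90.7 CPM in the PBS mice to 112.9, 114.3, 121.2 and 117.4 CPM in the tumor-bearing mice. Its log2 change was 0.42 (SE 0.08, FDR 0.00965), called in all 8 other settings and without each of the mice. E2f7 (log2 change -0.64, FDR 0.275) and E2f4 (-0.0045, FDR 0.982), both repressors, bounded those not called.

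Among 6 genes for the turnover of cyclins and p27, 1 rose. Fbxo31, an F-box protein known to direct cyclin D1 to destruction, was at 160.5, 160.3, 162.9 and 181.3 CPM in tumor-bearing mice and at 104.9, 103.2, 126.9 and 133.8 CPM in PBS mice. All tumor-bearing mice were above all PBS mice, at a log2 change of 0.50 (SE 0.09, FDR 0.00777), and the call held in all 8 other settings and without each of the mice. Ambra1, the adaptor of the ligase for all D-type cyclins, was not called (log2 change 0.15, FDR 0.264), nor was Skp2, which marks p27 for destruction (-0.67, FDR 0.165).

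Of the S phase genes regulated by E2F, 14 of 15 could be tested, 5 fell and 0 rose, with a median log2 change of -0.32. Rrm2, the small subunit of ribonucleotide reductase, was at 1.72, 1.45, 1.81 and 1.96 CPM with tumor and at 3.00, 4.07, 2.94 and 4.84 CPM without. Its groups were apart and its log2 change of -1.09 (SE 0.20, FDR 0.00909) was called without each of the mice. Uhrf1, which keeps DNA methylation through replication, changed by -1.21 (SE 0.30, FDR 0.0299). The replication licensing genes Cdt1 (-0.90, SE 0.25, FDR 0.0456), Mcm3 (-0.66, SE 0.18, FDR 0.0436) and Mcm6 (-0.62, SE 0.16, FDR 0.0350) were also called. With 1 mouse left out, Uhrf1 (FDR 0.0154 and 0.00903) and Mcm6 (0.00878 and 0.0334) were called without PBS1-1 or PBS2-1, Mcm3 without PBS1-1 (0.00633) or LLC1-3 (0.0489), and Cdt1 without PBS1-1 (0.0319). In the other fits these calls were lost, with an FDR of up to 0.0943 for Uhrf1, 0.0982 for Mcm6, 0.1305 for Mcm3 and 0.102 for Cdt1. With all mice, Uhrf1 was called in 7, Mcm3 in 6 and Mcm6 in 8 of 8 other settings, and Cdt1 in 3 of 7. Mcm5 (-0.59, FDR 0.180) and Mcm7 (0.14, FDR 0.364) were at the ends of those not called. Rrm2, Uhrf1, Ccnd1 and Fbxo31 are among the changed transcripts that the study listed. All calls given here come from these same mice, so the direction of none of them is independent evidence.

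The remaining lists held 1 call. Lin9, of the MuvB complex that pocket proteins bind in resting cells, changed by -0.52 (SE 0.14, FDR 0.0452), a call lost with any 1 mouse left out (FDR 0.0526 to 0.111). Lin54 (-0.19, FDR 0.504) and Lin52 (0.19, FDR 0.246) of the same complex were not called. None of 3 other CDK inhibitors tested was called (1 higher at an unadjusted p under 0.05, beside 12.4% of all genes), Cdkn1a (p21) having a log2 change of 0.49 (SE 0.21, FDR 0.165) and Cdkn2d (p19) 0.15 (FDR 0.457). The CDK-activating kinase had 0 of 3 genes called (1 lower at an unadjusted p under 0.05, beside 13% of all genes), from Cdk7 (-0.24, FDR 0.0677) to Mnat1 (0.01, FDR 0.967). Rbl2, which encodes the pocket protein p130 of resting cells, had a log2 change of 0.15 (SE 0.07, FDR 0.202), and its sign is opposite to that of Rbl1.

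**Figure D5:**
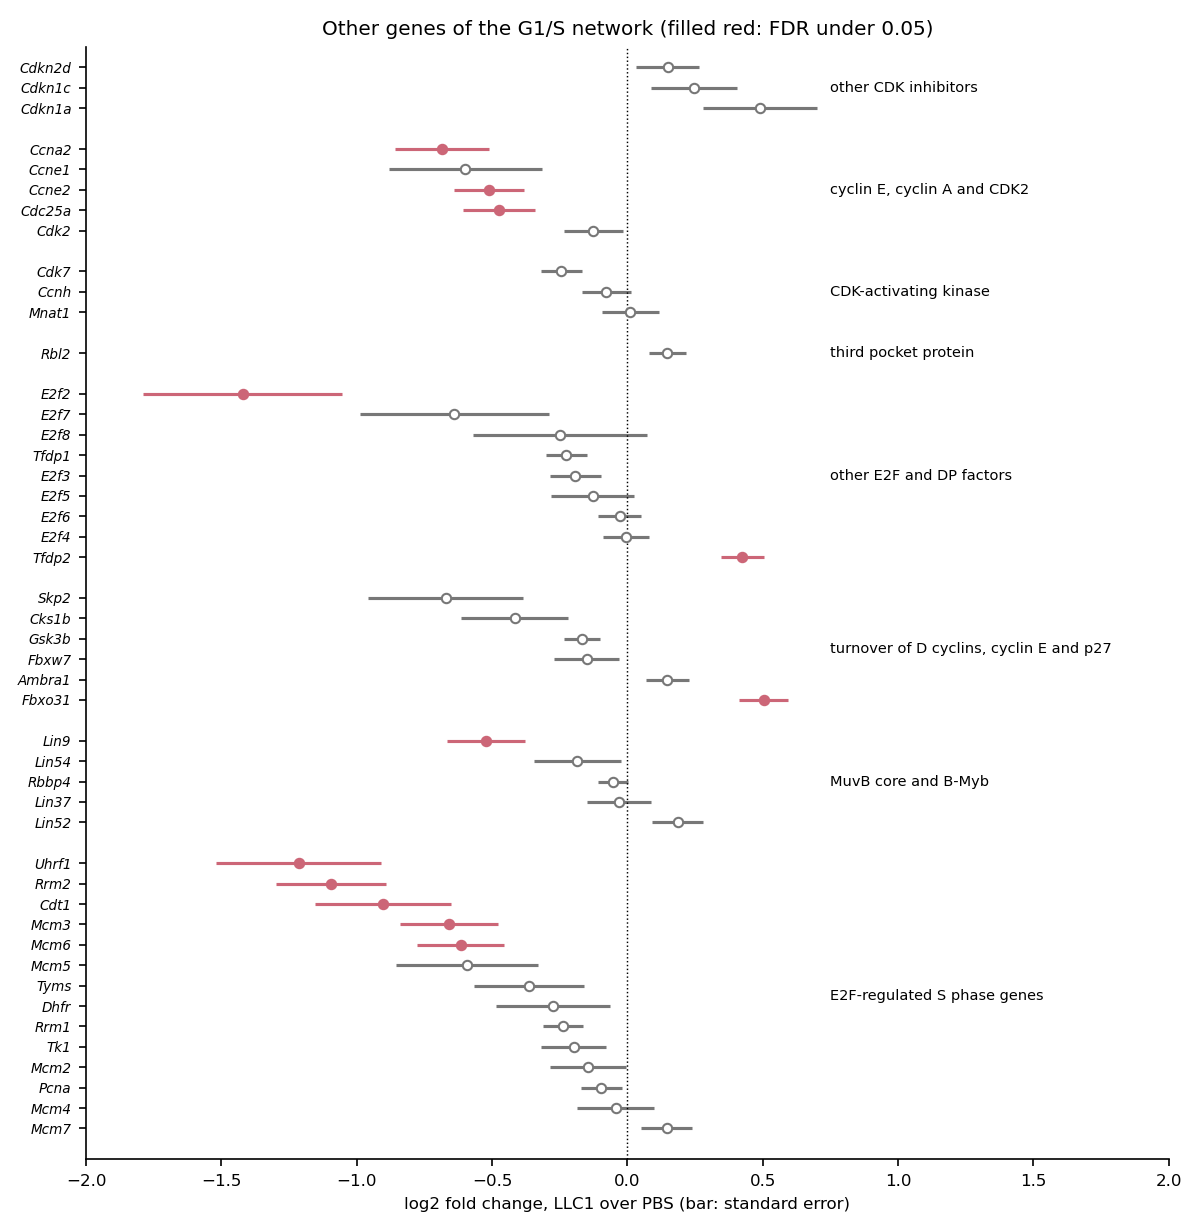
Log2 fold change, tumor-bearing over PBS-injected mice, of the 46 other G1 and S phase genes tested, in rows grouped by role, with the standard error from edgeR's fit (n = 4 mice per group, filled red for FDR under 0.05). The 10 genes called lower are in the cyclin E and A, E2F, MuvB and S phase groups, and the 2 called higher are Tfdp2 and Fbxo31.

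The letters of an E2F site were in the windows of 6 of the 7 other network genes that fell and had a window, and of 7 of 28 that were not called. The fallen gene without a match was Rrm2, the 1 of these 7 whose call held without each of the mice, while the calls of the 6 with a match held in 1 to 3 of the 8 fits with a mouse left out. The S phase list is made of genes known to be regulated by E2F, and 7 of its 13 genes with a window had a match, so this is a property of the list too. The windows of Cdc25a and Mcm6 are shown beside that of Rbl1 for the differing place and number of the matches. They are the 250 bases before the RefSeq start in GRCm38.p6, at chr9:109875329-109875578 (plus strand) and chr1:128359706-128359955 (minus strand), with matches in capitals.
Cdc25a: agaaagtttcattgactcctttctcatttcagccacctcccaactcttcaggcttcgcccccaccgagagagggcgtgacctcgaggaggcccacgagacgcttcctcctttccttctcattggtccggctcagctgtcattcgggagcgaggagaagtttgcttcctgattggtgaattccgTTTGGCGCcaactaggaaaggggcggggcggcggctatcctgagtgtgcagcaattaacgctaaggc
Mcm6: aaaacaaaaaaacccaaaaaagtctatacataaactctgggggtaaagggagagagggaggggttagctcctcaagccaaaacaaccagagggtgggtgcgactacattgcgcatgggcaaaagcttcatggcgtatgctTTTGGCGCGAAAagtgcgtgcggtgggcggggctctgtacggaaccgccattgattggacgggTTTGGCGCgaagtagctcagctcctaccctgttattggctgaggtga

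In Cdc25a the match begins 67 bases before the start, and in Mcm6 matches begin 110, 106 and 47 bases before it, the first 2 of which overlap on opposite strands.

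Genes of dividing cells were also lower in tumor-bearing mice. The markers Mki67, Top2a, Ccnb1, Cdk1, Bub1, Aurkb and Birc5 summed to 2.37 to 5.03 CPM in tumor-bearing mice and to 14.9 to 47.7 CPM in PBS mice. All 4 that could be tested were called lower, with a median log2 change of -2.83, and Ccnb1 and Bub1 had 0 to 3 counts per tumor-bearing mouse. Cdk1 had 5 to 7 counts per tumor-bearing and 16 to 59 per PBS mouse, and Birc5 4 to 6 and 10 to 42. These genes passed the filter on low counts through the PBS mice alone. The count of calls and the median are thus partly set by that filter and only describe these genes. Among the PBS mice the sum was 16.6 CPM in PBS1-1, 39.5 in PBS1-3, 14.9 in PBS2-1 and 47.7 in PBS2-5. PBS1-1 and PBS2-1 had the low sums, and E2f1 and Ccnd1 were also lower in these mice than in PBS1-3 and PBS2-5. Rbl1 did not follow this order, at 4.71 CPM in PBS2-1 and 3.78 CPM in PBS2-5. Ccnd1 and Rbl1 were highest in PBS1-3. Of the cell types a ventricle holds, endothelial markers had 3 of 7 called lower and sums of 742 to 863 CPM with tumor and 848 to 1124 CPM without. Fibroblast markers had 3 of 6 called lower and sums of 838 to 917 and 925 to 1308 CPM. Macrophage markers had 1 of 6 called lower and sums of 161 to 199 and 166 to 250 CPM. Markers of smooth muscle and pericytes had 0 of 6 called and sums of 784 to 842 and 902 to 1064 CPM. Of all genes, 4.61% were called lower. At an unadjusted p under 0.05, 5 endothelial, 3 fibroblast, 4 macrophage and 3 smooth muscle and pericyte markers were lower, beside 13% of all genes. The median log2 changes of the endothelial, fibroblast, macrophage, and smooth muscle and pericyte lists were -0.31, -0.41, -0.29 and -0.26, in that order. PBS1-1 had the lowest PBS sum of the endothelial (848 CPM), fibroblast (925 CPM) and macrophage (166 CPM) lists. Its smooth muscle and pericyte sum of 952 CPM was not the lowest. The called endothelial markers were Cldn5 (log2 change -0.79), Kdr (-0.61) and Emcn (-0.31), the fibroblast ones Col3a1 (-0.98), Lum (-0.62) and Col1a1 (-0.60), while Dcn (0.07, FDR 0.612), Pdgfra (-0.07, FDR 0.654) and Tcf21 (-0.21, FDR 0.331) were not called, and the macrophage one Mrc1 (-0.42). Cardiomyocyte markers had 1 of 6 called higher, beside 4.12% of all genes, and a median of 0.16. At an unadjusted p under 0.05, 3 of these 6 were higher, beside 12.4% of all genes. Lymphocyte markers were near 0, at 0.554 to 1.52 and 1.33 to 2.53 CPM in sum. The part of these cell types in the levels of Ccnd1, Rbl1 and the other genes was not tested.

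The genes whose pattern over the 8 mice was most like that of Ccnd1 were found by the root mean square difference of centred log2 CPM, among 14781 genes that reached 10 counts in all mice. They were Nrp2 (0.132 log2 units, log2 change -0.96), Col15a1 (0.137, log2 change -0.98) and Vash1 (0.139, log2 change -0.997). Nrp2 is a co-receptor for VEGF and semaphorins, Col15a1 a basement membrane collagen, and Vash1 an angiogenesis inhibitor made by endothelial cells. The genes most like Rbl1 were Gsap (0.0951, log2 change -0.71), Ccdc173 (0.135, log2 change -0.71) and Slc25a45 (0.138, log2 change -0.61). Of these 6 genes all but Ccdc173 (FDR 0.114) were called, and the group difference is part of the likeness measured.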

How the data were processed

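Gene-level read counts of 8 ventricle libraries (4 mice per group, grouped by the treatment in the labels) were used. The counts were deposited by the authors as whole numbers without normalization. The submitters' processing notes name CASAVA, STAR, featureCounts and the mm10 build; the annotation and the strand setting are not given in the sources used here. The kit (TruSeq RNA) does not mark strand. Counts were compared with edgeR 4.0.16 in R 4.3.3 (filterByExpr, TMM, quasi-likelihood F-test), with Benjamini-Hochberg adjustment over 16111 genes and an FDR under 0.05 as a call. The SE was the absolute log2 change divided by the square root of F. CPM are TMM-normalized. The exact permutation test runs over 70 arrangements, with a smallest p of 0.0286. Alternatives were upper-quartile scaling, library totals, DESeq2 1.42.0, limma-voom 3.58.1, robust empirical Bayes, no filter, at least 10 counts in every mouse, the first number of the mouse name as a covariate and each mouse left out.

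The named genes are all 10 members, every called gene of the other network lists with the lowest and highest of each list not called, genes whose exons overlap a member, and the 3 genes most like each called member. Members and lists were chosen with earlier results of these data known. Nothing states whether mice shared litters or cages, so p-values measure the spread between these mice. Promoters are RefSeq's (GRCm38.p6), and overlaps come from GENCODE M21. No 2 libraries were identical.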

Additional observations from a re-analysis of the deposited data

Results flagged for a closer look

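In groups of 4 mice, a mouse was singled out where its gap to the nearest other mouse, divided by the group's range, was above Dixon's 95% critical value. Of 44 groups of values checked, 3 were singled out, and chance gives about 1 in 20. E2f2 was at 0.794 CPM in LLC1-2, while the other tumor-bearing mice were at 0.302 to 0.383 CPM. Tfdp2 was at 72.4 CPM in PBS1-3, against 90.7 to 92.9 CPM in the other PBS mice. Fbxo31 was at 181.3 CPM in LLC2-2, against 160.3 to 162.9 CPM in the other tumor-bearing mice. Without the mouse singled out, all 3 genes were still called, but E2f2 was called in 3 of the 8 fits with a mouse left out (FDR up to 0.0993).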

How the results depend on the processing

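No member was called higher under any alternative, and the number called lower was 1 to 3 with a mouse left out. The other network genes called lower numbered 10 with all mice, 6 with the first number of the mouse name as a covariate, and 1 to 11 with a mouse left out. DESeq2 and no filter each called 7 network genes lower, where all 50 had a fold change. Over all genes, DESeq2 tested 16556 and no filter 27383, so some of the 50 may lack a DESeq2 FDR. The 2 called higher were 2 in each alternative. Ccnd2 had a log2 change of -0.0137 instead of 0.04 with library totals only, and -0.0146 (without PBS2-1) to 0.0798 (without PBS1-3) with a mouse left out, and was never called. Shares computed on raw counts instead of per length were 22.1% with tumor and 36.5% without for Ccnd1, 49.997% and 38.9% for Ccnd2, 27.9% and 24.6% for Ccnd3, and 10.6% and 12.1% for Cdk6 in Cdk4 plus Cdk6. Over the 10 members and the 12 other network genes called, the single genes refitted under the alternatives, 265 values kept their side of the threshold, 81 lost a call, 1 gained one and 2 changed sign. Library totals moved the median of all genes by -0.05 on the log2 scale. No paired analysis was possible because the groups share only the code 1-3, carried by different mice. Depth limits the genes of few counts, such as E2f1 at 6 to 44 counts per library.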
